A study of Mus musculus with 6 samples.

Results

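The antioxidant and glutathione genes of mouse taste cells were described at 2 ages. Members were chosen by name: the glutathione S-transferases, glutathione peroxidases, peroxiredoxins, thioredoxin family, superoxide dismutases and aldehyde dehydrogenases, together with Hmox1, Hmox2, Nqo1, Gclc, Gclm, Srxn1, Cat, Gsr, Nfe2l2 and Keap1. The rule uses gene names and no expression value, although earlier results of these data were known when the members were chosen. The rule found 88 of the 23361 genes in the deposited table. A gene was taken as expressed where its mean over both ages reached 1 FPKM, which 75 members and 12652 genes of the whole table did. FPKM counts the fragments on a gene relative to its transcript length and to all mapped fragments, so values of different genes can be set side by side.

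RNA was sequenced from CV/Fol taste cells, which are cells harvested after enzyme treatment from the circumvallate (CV) and foliate (Fol) papillae at the back and sides of the tongue. The mice were C57BL/6 at either age, with no other genotype or treatment in the labels. Each age had 3 pooled libraries, with 4 mice in a pool at 2 months and 3 mice in a pool at 6 months. The labels give 2 and 6 months, while the design text of the series mentions 3 and 6 months once. The deposited table has 1 FPKM value for each gene and age, the authors' estimate over the 3 libraries. No SD can therefore be given, no difference below has a replicate check, and the depth behind the values is unknown.

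Cells remove superoxide in steps: superoxide dismutases turn it into hydrogen peroxide, and catalase, glutathione peroxidases and peroxiredoxins remove the peroxide. Glutathione peroxidases draw on glutathione and peroxiredoxins mostly on thioredoxin, and reductases that use NADPH restore these donors. Glutathione S-transferases join glutathione to reactive compounds, and aldehyde dehydrogenases oxidise aldehydes, retinal among them. Many of these genes are known targets of NRF2, the transcription factor encoded by Nfe2l2, which KEAP1 marks for degradation until oxidants or electrophiles modify it. NRF2 binds the antioxidant response element, whose core can contain the letters of an AP-1 site, the site of Fos and Jun proteins.

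The sequences of 6 members that hold such letters close upstream of a transcript start are shown because their values are given below and because they show how the letters of both motifs lie and overlap. They were read from the RefSeq promoter table for GRCm38.p6, 5′ to 3′ on the strand of the gene. The capitals mark the matched motif, either TGANTCA (AP-1 letters) or TGACNNNGC (response element core), and 20 bases on either side are given.
Gstp1: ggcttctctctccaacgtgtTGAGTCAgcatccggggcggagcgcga
Gstp2: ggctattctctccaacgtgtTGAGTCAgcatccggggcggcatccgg
Srxn1: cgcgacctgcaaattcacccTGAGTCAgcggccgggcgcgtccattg
Prdx1: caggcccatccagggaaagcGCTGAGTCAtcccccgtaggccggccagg
Gclm: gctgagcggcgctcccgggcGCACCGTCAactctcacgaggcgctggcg
Txnrd1: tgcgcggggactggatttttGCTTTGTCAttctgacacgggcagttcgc
These windows lie at chr19:4037960-4038006 (Gstp1, minus strand), chr19:4042284-4042330 (Gstp2, minus strand), chr2:152105459-152105505 (Srxn1, plus strand), chr4:116685446-116685494 (Prdx1, plus strand), chr3:122245403-122245451 (Gclm, plus strand) and chr10:82859094-82859142 (Txnrd1, plus strand). The first motif base lies 74, 89, 45, 133, 134 and 92 bases upstream of the transcript start in that table, in the same order. For Gstp1, Gstp2, Srxn1 and Prdx1 this is the start of the gene as annotated. For Txnrd1 and Gclm it is an alternative start downstream of the first base of the gene, which is 82833951 on chromosome 10 and 122245487 on chromosome 3. In Prdx1, Gclm and Txnrd1 the core is read on the opposite strand, so the capitals are its reverse complement. In Prdx1 the capitals contain TGAGTCA, so both motifs cover the same bases there. Srxn1 has another TGAGTCA, 102 bases upstream, and Prdx1 has a TGACTCA, 237 bases upstream.

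A window of 250 bases upstream was held for 61 of the 75 expressed members. On either strand, TGACNNNGC was found for 10 of the 61 members (16.4%), and for 11.5% of the 27025 gene symbols with a window. Besides Prdx1, Gclm and Txnrd1 these were Aldh9a1, Gsta3, Gstm5, Nfe2l2, Sod1, Txndc11 and Txndc5. TGANTCA was found for 6 of the 61 (9.84%), and for 7.82% of all symbols. Aldh1a1 and Gstm5 held it besides Gstp1, Gstp2, Prdx1 and Srxn1. A match of letters is not a measured binding site. The expressed members with no window in the table were Hmox1, Prdx6, Gsta4, Gstt2, Gclc, Gsr, Aldh3a1, Aldh3b2, Aldh2, Aldh1a3, Aldh7a1, Aldh1l2, Txnl1 and Txnl4a.

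CV/Fol taste cells held several of these mRNAs at high levels at both ages. Of the 75 members, 22 (29.3%) had a mean of at least 100 FPKM, as had 6.84% of the 12652 genes. Means of at least 1000 FPKM were found for 3 members (4.0%), against 0.956% of all genes. These were Gsto1, an omega-class transferase and reductase, Gsta4, an alpha-class transferase for lipid-derived hydroxyalkenals, and Aldh3a1, an aldehyde dehydrogenase abundant in cornea and stomach epithelium. Together with Gpx2, the glutathione peroxidase of epithelia such as the gut, they held 58.4% of the members' summed FPKM at 2 months and 58.9% at 6 months. All 88 members together summed to 12469 FPKM at 2 and 12242 FPKM at 6 months, or 1.79% and 1.84% of the table's sum.

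**Figure D1:**
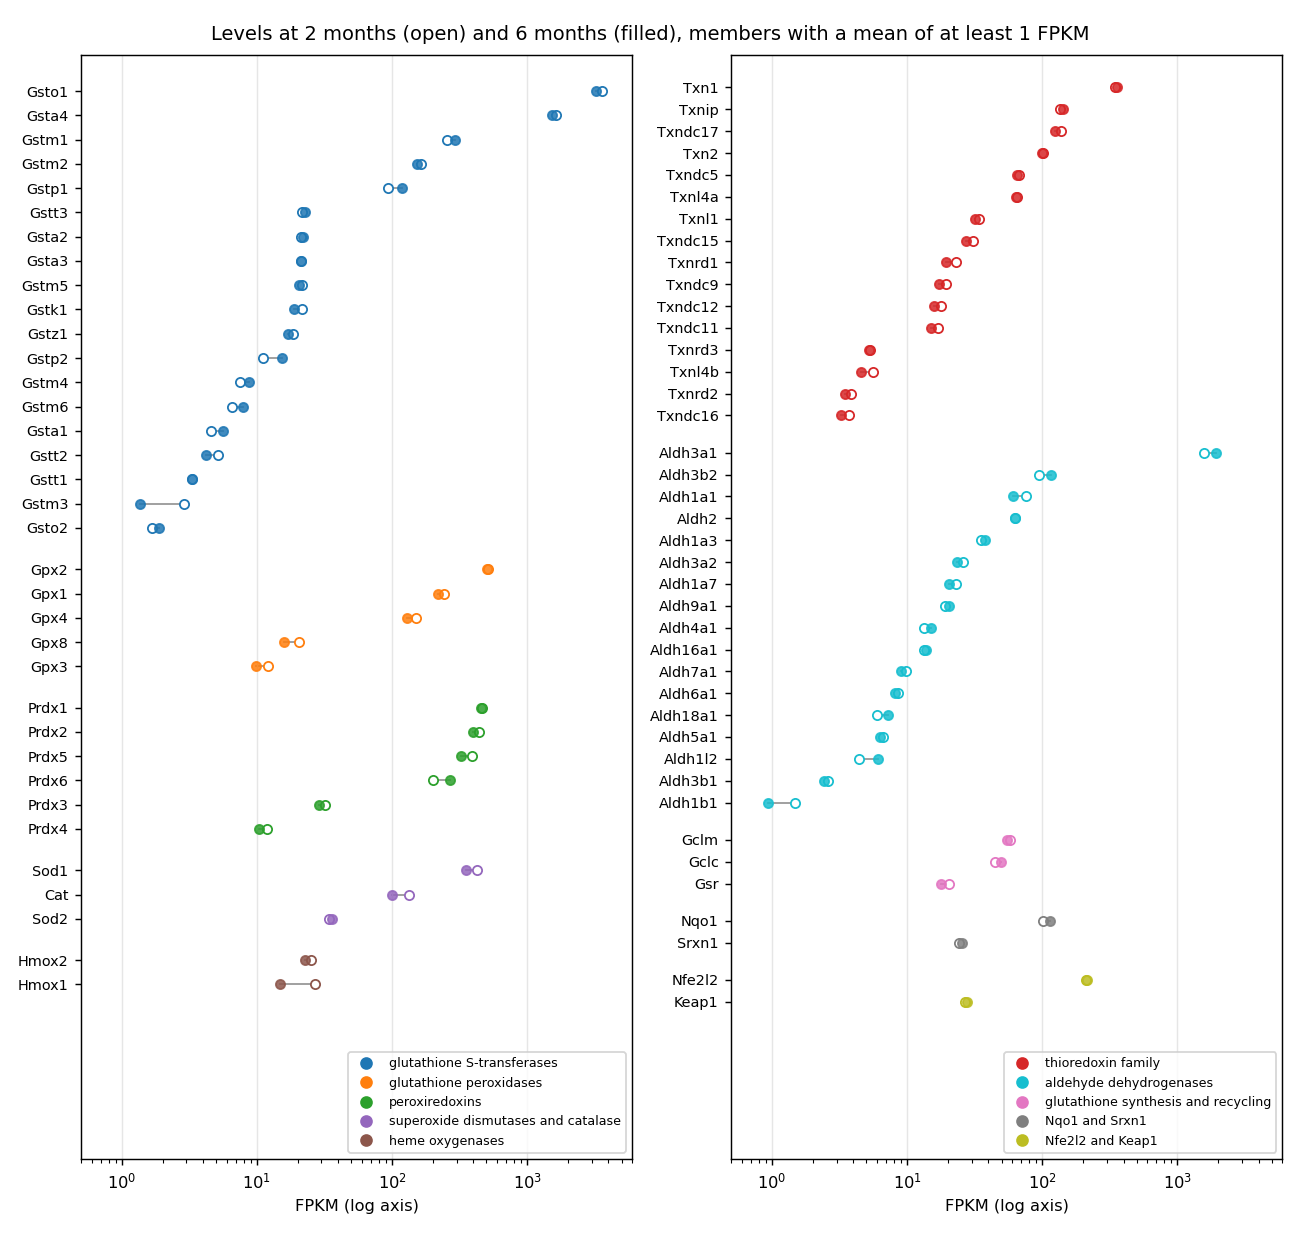
Levels of the 75 expressed members at 2 months (open circles) and 6 months (filled circles), on a log axis of FPKM and coloured by class. Hmox1 (27.0 and 14.9 FPKM) and Gstm3 (2.89 and 1.36 FPKM) have the widest gaps, and the circles of most members touch or overlap.

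Differences between the ages were small for most members. Each is given as log2(FPKM + 1) at the older age less that at the younger, a scale that understates the difference of weakly expressed genes. On this scale 47 of the 75 members were lower at 6 months and 28 higher, with 62.7% lower against 53.7% of all 12652 genes. Genes near 0 change side with the scaling of the ages, so such counts of direction are not firm. The members' median was -0.07, with quartiles of -0.17 and 0.07, and the median of all genes was -0.01, with quartiles of -0.10 and 0.08. A difference of at least 1.5-fold, 0.58 on this scale, was used to name large differences. It was reached by Hmox1 and Gstm3, which were lower (2 of 75, 2.67%, against 1.72% of all genes), and by 0 higher members, against 1.05% of all genes. At 1.2-fold, 7 members were lower (9.33%, against 6.49% of all genes) and 6 were higher (8.0%, against 4.34%). These shares describe the table and were not tested.

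The members lower by at least 1.2-fold were Hmox1, Gstm3, Cat, Gpx8, Aldh1b1, Aldh1a1 and Sod1. Those higher were Prdx6, Gstp2, Aldh1l2, Gstp1, Aldh3a1 and Aldh3b2. On the same scale, Prdx6 (0.43), Gstp2 (0.43) and Cat (-0.42) were just outside the 1.5-fold threshold. They were well apart from Gstm3 (-0.72) and Hmox1 (-0.82) inside it. In FPKM without the added 1, Aldh1b1 was also past 1.5-fold, with a ratio of 1.59 at a low level (1.48 and 0.932 FPKM). By level, the members' median was -0.06 at 1 to 10 FPKM (18 members), against 0.01 for all genes at that level. It was -0.09 at 10 to 100 FPKM (35 members), against -0.02. From 100 FPKM (22 members) the order was the opposite, with -0.04 for the members and -0.09 for all genes. Past 1.5-fold were 5.56%, 2.86% and 0.0% of the members in these bands, 1, 1 and 0 genes, and 2.47%, 2.32% and 7.85% of all genes.

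**Figure D2:**
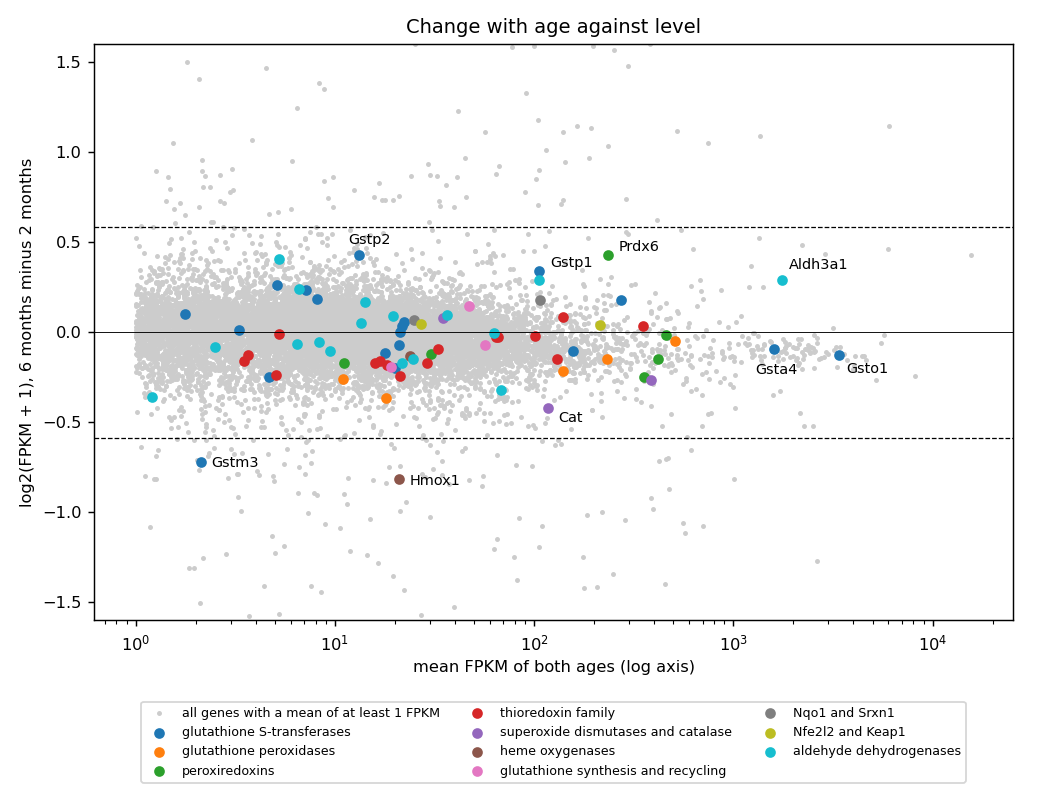
Difference between the ages on the log2(FPKM + 1) scale, 6 months minus 2 months, against the mean FPKM on a log axis. Coloured points are members by class, grey points are the other expressed genes (131 genes lie outside the plotted range) and dashed lines mark 1.5-fold, which Hmox1 and Gstm3 passed.

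Heme oxygenases open heme to biliverdin, iron and carbon monoxide, Hmox1 as the inducible and Hmox2 as the constitutive enzyme. Hmox1 (chr8:75093618-75100593 on GRCm38) was at 27.0 FPKM at 2 and 14.9 FPKM at 6 months, 1.81-fold lower in FPKM. Its log2 difference of -0.82 was the lowest of the 75 members with a pseudocount of 1, whereas with 0.1 Gstm3 was lower (-1.03 against -0.85), and 151 of the 12652 genes were as low or lower. Hmox2 was at 25.1 and 22.8 FPKM, a difference of -0.13. The pair was thus near parity at 2 months, with 51.9% of their summed FPKM from Hmox1, and at 6 months Hmox1 held 39.5%. Macrophages are a known source of Hmox1. Of 10 leukocyte markers 5 were expressed, 2 of them lower and 3 higher. Lyz2 was at 293 and 254 FPKM, Cd68 at 10.05 and 7.15 FPKM, Csf1r at 2.56 and 3.13 FPKM, and Cd163 below 1 FPKM at either age, and the part of such cells in the Hmox1 difference was not tested. Here and below, fewer cells of a type and less RNA per cell cannot be told apart in bulk RNA.

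The next steps of heme and iron handling were not lower to that extent. Biliverdin reductases turn biliverdin into bilirubin, and Blvra was at 14.8 and 12.9 FPKM while Blvrb was at 36.5 and 41.5 FPKM. Ferritin stores the iron, and its chains Fth1 and Ftl1 were at 1094 and 885 FPKM and at 644 and 568 FPKM. None of the 19 expressed heme and iron genes passed 1.5-fold, against 1.72% of all genes lower and 1.05% higher. At such shares a count of 0 in 19 genes says little. The median of the 19 genes was -0.01.

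Nfe2l2 and Keap1, the regulators of the pathway, differed by at most 0.05. Nfe2l2 was at 211 FPKM at 2 and 216 FPKM at 6 months, a difference of 0.04, and ranked 409 of the 12652 genes by mean level. Keap1 was at 26.6 and 27.5 FPKM (0.05). Of 15 other regulators and partners of NRF2, 9 were lower and 6 higher, with a median of -0.02. None was past 1.2-fold on the log2(FPKM + 1) scale, against 6.49% of all genes lower and 4.34% higher. In FPKM alone, Nfe2l3 (9.61 and 7.98 FPKM) and Bach2 (1.03 and 1.30 FPKM) were past it.

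Known NRF2 targets other than Hmox1 differed less than it did, in either direction, and the part of NRF2 in these values was not tested. The quinone reductase Nqo1 was higher, at 100.5 FPKM at 2 and 113.8 FPKM at 6 months (0.18). Sulfiredoxin (Srxn1), which restores over-oxidised peroxiredoxins, was at 24.4 and 25.6 FPKM (0.07). Among the lower targets were Fth1 (-0.30), Txnrd1 (-0.24), Gsr (-0.19) and Ftl1 (-0.18). Of 31 NRF2-regulated genes, 13 of them members, 15 were lower and 16 higher at 6 months. Hmox1 alone of the 31 genes passed 1.5-fold, against 1.72% of all genes lower and 1.05% higher. Their median was 0.03 with or without Hmox1, and 0.05 for the 18 genes that are not members.

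Glutathione is built by glutamate-cysteine ligase, with Gclc as its catalytic and Gclm as its modifier subunit, and glutathione reductase (Gsr) restores it after oxidation. Gclc was at 44.8 FPKM at 2 and 49.8 FPKM at 6 months (0.15), and Gclm at 57.8 and 55.1 FPKM (-0.07). Gsr was at 20.3 and 17.7 FPKM (-0.19). The 3 genes summed to 123.01 FPKM at 2 and 122.6 FPKM at 6 months. Among 49 other glutathione and redox genes, 28 were lower and 21 higher, with a median of -0.02. Glutaredoxin (Glrx), which removes glutathione from proteins, was at 165 and 107 FPKM (-0.62), and Chac1, which degrades glutathione, was at 4.86 and 2.87 FPKM (-0.60). These were the 2 of the 49 genes past 1.5-fold, both lower, against 1.72% of all genes lower. Neither was past it when the ages were given the same upper quartile.

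The glutathione S-transferases had 19 of 21 genes expressed, 8 lower and 11 higher at 6 months, with a median of 0.01. Gsto1 stood at 3554 FPKM at 2 and 3250 FPKM at 6 months (-0.13), rank 18 of the 12652 genes, and Gsta4 at 1640 and 1540 FPKM (-0.09). Gsto1 alone held 60.5% of the class sum at 2 months and 58.9% at 6 months, so the class sum differed by -6.04% although more members were higher than lower. Gsto2, its neighbour on chromosome 19, was at 1.68 and 1.88 FPKM.

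The pi-class pair Gstp1 and Gstp2 was higher at 6 months. Gstp1 (chr19:4035411-4037912) was at 93.4 FPKM at 2 and 118.6 FPKM at 6 months (0.34), and Gstp2 (chr19:4040288-4042221) at 11.1 and 15.3 FPKM (0.43). The 2 genes share 62.3% and 64.3% of their 50-base transcript stretches with each other, so the split of reads between them is uncertain. Their sum, which depends little on the split, was 104.6 FPKM at 2 and 133.9 FPKM at 6 months. Both hold the TGANTCA letters, as do Srxn1 (0.07), Prdx1 (-0.02), Gstm5 (-0.07) and Aldh1a1 (-0.32). The part of these letters in the differences was not tested.

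Mu-class genes lie in 1 cluster on chromosome 3 and differed in direction. Gstm1, the highest of them, was at 256.9 FPKM at 2 and 290.4 FPKM at 6 months (0.18), whereas Gstm2 was at 163.1 and 151.7 FPKM (-0.10). Gstm3 (chr3:107963696-107969174) was at 2.89 and 1.36 FPKM (-0.72), and 177 genes were as low or lower. The FPKM ratio of 2.12 belongs to a low level of unknown depth, and 28.8% of the 50-base stretches of Gstm3 also occur in transcripts of other genes. Gstm4 (7.52 and 8.68 FPKM) and Gstm6 (6.48 and 7.81 FPKM) were higher, and Gstm5 was at 21.5 and 20.4 FPKM. The other transferases stood between 3.29 and 22.6 FPKM, with Gstk1 at 21.5 and 18.6 FPKM, Gsta1 at 4.54 and 5.65 FPKM and Gstt2 at 5.17 and 4.19 FPKM.

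All 5 expressed glutathione peroxidases were lower at 6 months (53.7% of all genes were lower), with a median of -0.22. For all genes from 100 FPKM, the level of Gpx2, Gpx1 and Gpx4, the median was -0.09, with quartiles of -0.16 and 0.0009. Gpx2 was at 517 FPKM at 2 and 500.1 FPKM at 6 months (-0.05), and Gpx1, the common cytosolic enzyme, at 244 and 220.5 FPKM (-0.15). Gpx4, which reduces lipid peroxides in membranes, was at 149.9 and 128.8 FPKM (-0.22), and 61.7% of its 50-base stretches also occur in other genes' transcripts, Gpx4-ps2 first. The widest gap of the class was that of Gpx8, an enzyme of the endoplasmic reticulum (ER), at 20.5 and 15.7 FPKM (-0.36). Gpx3, the secreted form, was at 12.03 and 9.90 FPKM (-0.26).

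Peroxiredoxins were lower at 6 months in 5 of the 6 expressed genes (53.7% of all genes were lower), and Prdx6 was the exception. Prdx1, Prdx2, Prdx5 and Prdx6 stood above 100 FPKM, where the median of all genes was -0.09. Prdx6, which reduces oxidised phospholipids and uses glutathione as its donor, was at 199.7 FPKM at 2 and 269.3 FPKM at 6 months (0.43), and 224 genes were as high or higher. On this scale it was the highest member, whereas the ratio in FPKM was 1.40 for Aldh1l2, 1.38 for Gstp2 and 1.35 for Prdx6. Prdx1 and Prdx2, the cytosolic enzymes, were at 460.7 and 454.9 FPKM (-0.02) and at 438 and 394.6 FPKM (-0.15). Exons of Prdx2 overlap Junb on the opposite strand, and since counting is not stated to use strand, reads of that stretch cannot be assigned to either gene. Prdx5 was at 387.6 and 325.7 FPKM (-0.25), the mitochondrial Prdx3 at 31.6 and 29.0 FPKM (-0.12) and Prdx4 of the ER at 11.8 and 10.3 FPKM (-0.17).

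Superoxide dismutases and catalase were lower in sum, at 591 FPKM at 2 and 488 FPKM at 6 months, a difference of -17.5%. Sod1, the cytosolic copper-zinc enzyme, was at 423 and 352 FPKM (-0.27), and the mitochondrial Sod2 at 33.9 and 35.8 FPKM (0.08). Of the 50-base stretches of Sod1, 23.1% also occur in transcripts of another gene, Gm8566. Sod3, the extracellular enzyme, was at 0.259 and 0.247 FPKM. Catalase (Cat, chr2:103453904-103485153), which breaks down peroxide in peroxisomes, was at 134 FPKM at 2 and 99.99 FPKM at 6 months (-0.42), with 4.59% of all genes differing by as much or more. Catalase and Prdx2 are abundant in red blood cells, whose markers Hba-a2 and Alas2 were at 59.4 and 80.4 FPKM and at 4.99 and 7.05 FPKM, with Slc4a1 under 0.1 FPKM and Hbb-b2 listed at 0. The part of these cells in the values of Cat and Prdx2 was not tested.

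The thioredoxin family was lower at 6 months in 14 of the 16 expressed genes (87.5%, against 53.7% of all genes). Its median was -0.14. Of the 14, Txn2, Txndc5, Txnl4a and Txnrd3 lay between -0.03 and -0.01. Giving both ages the same upper quartile, a factor of 1.03 for the 6 month values, puts these genes above 0. The family median is then -0.10, and that of all genes 0.03. On the log2(FPKM + 1) scale none of the 16 genes was past 1.2-fold, against 6.49% of all genes lower and 4.34% higher. In FPKM alone, Txnl4b was, at 5.57 and 4.57 FPKM. Txn1, the cytosolic donor, was at 348 FPKM at 2 and 356 FPKM at 6 months (0.03), and its inhibitor Txnip at 135 and 143.7 FPKM (0.09), and these were the 2 higher genes. Txn2, the mitochondrial form, was at 102.0 and 100.3 FPKM (-0.02). The reductases Txnrd1 and Txnrd2 were at 23.2 and 19.4 FPKM (-0.24) and at 3.85 and 3.44 FPKM (-0.13). The 7 expressed Txndc genes lay between -0.18 and -0.03, with Txndc17 at 137.6 and 124.2 FPKM (-0.15).

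Oxidative protein folding in the ER is a known source of peroxide. The list of its genes, like the other lists, was written with earlier results of these data known. Its shares are therefore descriptive only. Of 22 expressed ER oxidative folding genes, none of them members, 18 were lower and 4 higher (81.8% lower, against 53.7% of all genes), with a median of -0.21 and quartiles of -0.40 and -0.04. Their summed level was 2322 FPKM at 2 and 1880 FPKM at 6 months, and 10 of the 22 were lower by at least 1.2-fold and 0 higher, against 6.49% and 4.34% of all genes. The cochaperone gene Sdf2l1 was past 1.5-fold, at 26.9 and 15.7 FPKM (-0.74).

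**Figure D3:**
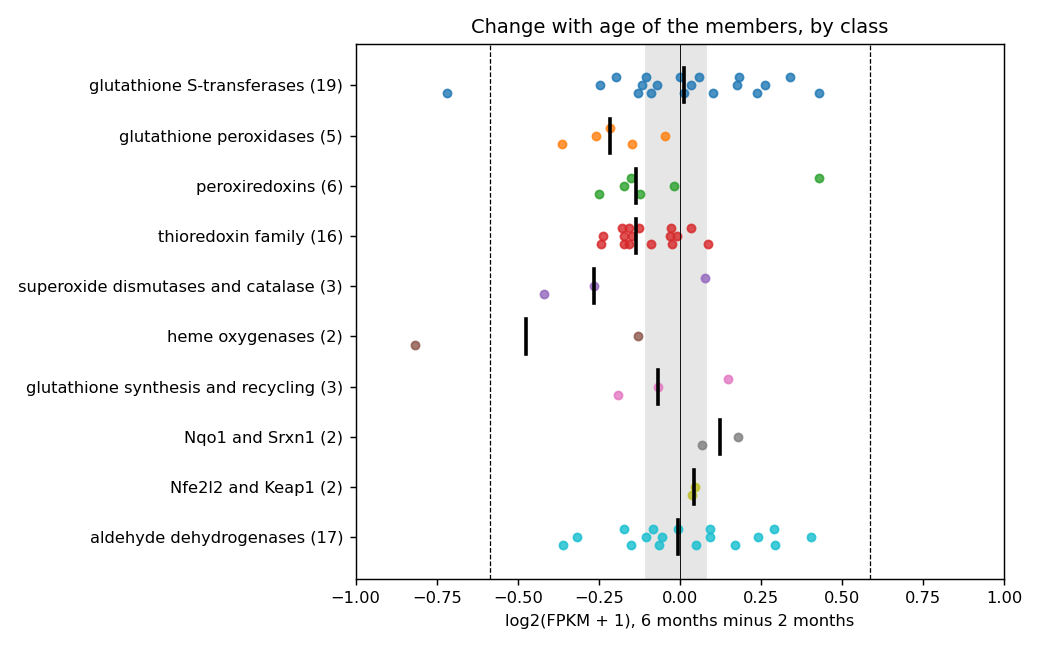
Difference between the ages on the log2(FPKM + 1) scale, 6 months minus 2 months, for each expressed member, by class. Each point is 1 gene, black bars are class medians, the grey band spans the quartiles of all 12652 genes and dashed lines mark 1.5-fold. The 5 glutathione peroxidases lie below 0, and the aldehyde dehydrogenases spread on either side.

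Aldehyde dehydrogenases divided, with 9 genes lower and 8 higher at 6 months of 17 expressed, and a median of -0.01. Aldh3a1 (chr11:61208510-61218418) was at 1570 FPKM at 2 and 1921 FPKM at 6 months (0.29) and held 79.5% and 82.4% of the class sum, which was 18.2% higher at 6 months. Aldh3b2, of the same Aldh3 family, was at 95.3 and 116.8 FPKM (0.29), though 24.2% of its 50-base stretches occur in other genes' transcripts, mostly Aldh3b3. In that family Aldh3a2 (26.1 and 23.4 FPKM, -0.15) and Aldh3b1 (2.61 and 2.41 FPKM, -0.08) were lower. Aldh2, the mitochondrial acetaldehyde enzyme, was at 62.9 and 62.7 FPKM (-0.01).

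The retinal-oxidising members Aldh1a1, Aldh1a3 and Aldh1a2 make retinoic acid. Aldh1a1 was lower, at 75.7 FPKM at 2 and 60.5 FPKM at 6 months (-0.32). Aldh1a3 was at 35.2 and 37.6 FPKM (0.09), and Aldh1a2 was listed at 0 at both ages. Of 21 other retinoic acid genes, 12 were lower and 9 higher, with a median of -0.03. The retinol transporter gene Stra6 was the one past 1.5-fold, at 6.61 and 12.8 FPKM (0.86), and the retinol-oxidising enzyme Adh1 was at 13.9 and 20.8 FPKM (0.55).

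Less abundant aldehyde dehydrogenases included Aldh1l2, a mitochondrial folate enzyme, at 4.37 and 6.10 FPKM (0.40), and Aldh18a1, which makes proline precursors, at 6.00 and 7.27 FPKM (0.24). Aldh1b1 was at 1.48 and 0.932 FPKM (-0.36). The oxidant-producing enzymes, the sources of superoxide and peroxide, were lower in 9 and higher in 12 of 21 genes, with a median of 0.04. At 1.2-fold, 5 of the 21 were lower and 0 higher, against 6.49% and 4.34% of all genes. Duoxa2, the maturation factor of the oxidase Duox2, was past 1.5-fold at 7.21 and 4.24 FPKM (-0.65), and Duox2 itself differed by -0.36.

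**Figure D4:**
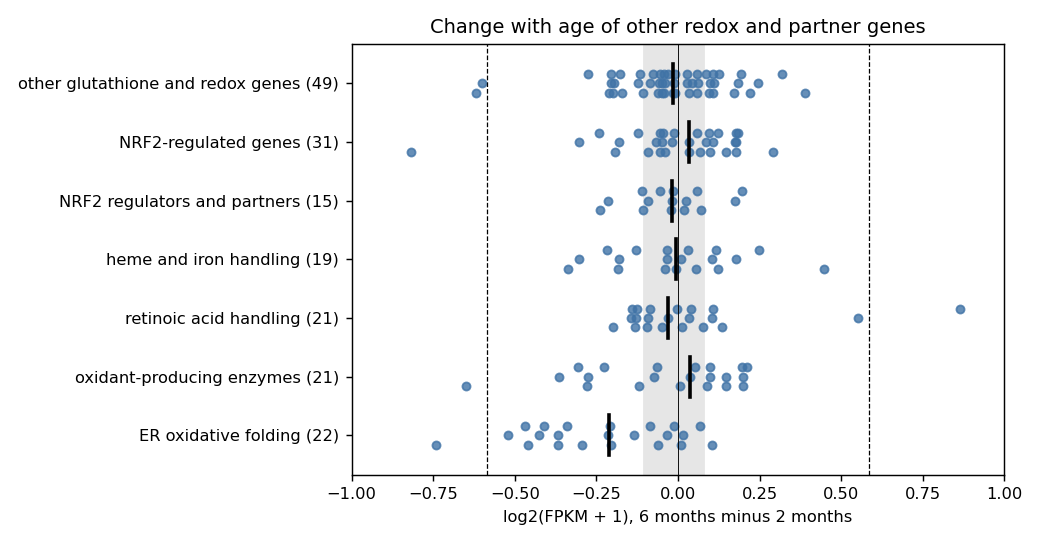
Difference between the ages on the log2(FPKM + 1) scale, 6 months minus 2 months, for the expressed genes of 7 related lists (numbers in brackets). Points are genes, black bars are list medians, the grey band spans the quartiles of all 12652 genes and dashed lines mark 1.5-fold. The NRF2-regulated list includes Hmox1 and other members, and the ER oxidative folding list has the lowest median, -0.21.

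The remaining 13 members had a mean below 1 FPKM. Aldh1a2, Gpx5, Gpx6 and Txndc8 were listed at 0 at both ages. Gpx7, an ER enzyme related to Gpx8, was at 1.18 FPKM at 2 and 0.497 FPKM at 6 months (-0.54), and Aldh1l1, Gstm7, Gpx2-ps1 and Sod3 were between 0.247 and 1.07 FPKM. Aldh8a1, Gstt4, Prdx6b and Txndc2 were at most 0.0477 FPKM.

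Markers of several cell types also differed between the ages, and their part in the members' differences was not tested. The summed taste cell markers were at 132 and 122 FPKM for type I, 361 and 345 FPKM for type II and 35.1 and 40.1 FPKM for type III cells. Of 6 type II markers 3 were lower and 3 higher, with a median of -0.01. The 3 expressed type I markers were lower, and Slc1a3, below 1 FPKM, was higher. Of 6 type III markers 1 was lower and 5 higher. Basal and cycling epithelial markers summed to 3741 and 3746 FPKM, with Krt5 at 2180 and 1962 FPKM, Krt14 at 1287 and 1533 FPKM, and 3 of the 6 genes lower and 3 higher. Cornifying epithelial markers without Krt4 were lower, at 7195 and 5931 FPKM, in 6 of 6 expressed genes. Lingual gland markers were at 184.9 and 81.9 FPKM (6 of 7 lower) and skeletal muscle markers at 13.04 and 26.01 FPKM (6 of 6 higher). Dcn, a fibroblast marker, was at 42.0 and 27.3 FPKM (-0.60), and the other fibroblast markers summed to 1.602 and 1.36 FPKM. Endothelial markers were at 5.91 and 5.29 FPKM and adipocyte markers at 0.877 and 3.61 FPKM, nearly all of it Fabp4 (0.692 and 3.48 FPKM). Leukocyte markers other than Lyz2 summed to 20.2 and 18.4 FPKM.

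Sequence copies limit some members: 11 of the 75 share at least 20% of their 50-base stretches with transcripts of other genes, Gsta1 (89.7%) and Gsta2 (64.2%) among them, and 53 share under 5%, including Hmox1, Cat and Prdx6. Exons of 19 overlap another gene on the opposite strand, which touched neither Hmox1, Gstm3, Cat, Prdx6 nor the Gstp pair.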

How the data were processed

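RNA of CV/Fol taste cells was polyA selected and sequenced from 3 pooled libraries at each age. By their methods and processing notes, the authors mapped reads with TopHat2 2.0.7 to GRCm38/mm10, used Cufflinks 2.1.1 with RefSeq gene models, and deposited FPKM values from Cuffdiff, 1 for each gene and age. The library normalization is not given in the sources used here. The 6 month column was recognised by the letter in the sample titles. A further deposited column, the authors' p-value for each gene, was not used. Depth per library is unknown from FPKM.

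The difference of each gene was log2(FPKM + 1) at the older age less that at the younger, for expressed genes (mean over both ages of 1 FPKM or more). With 1 value per age there was no test, and 1.5-fold was the threshold. This fold step was run on simulated 2-fold changes with little noise, in genes of at least 5 FPKM at 2 months. That run does not check smaller differences or weaker genes. Values in full were given for Hmox1, Hmox2, Nqo1, Gclc, Gclm, Srxn1, Cat, Gsr, Nfe2l2, Keap1 and the Sod genes, the 3 highest members of each other class, and members past or next to 1.5-fold, and other members could be named with their levels. Genes of other lists were named past 1.5-fold or as direct partners of a member. Duox2, Adh1 and the marker genes were named after their values were seen. Members and lists were chosen with earlier results of these data known. Coordinates and promoters came from RefSeq (GRCm38.p6, 88 of 88 members matched, promoters for 71). Shared 50-base stretches came from GENCODE transcripts of GRCm38. Alternatives were another pseudocount, filter, fold and scaling. Scripts ran in Python 3.11.15, numpy 2.4.6, pandas 2.3.3 and matplotlib 3.10.9.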

Additional observations from a re-analysis of the deposited data

How the results depend on the processing

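With no value per library, no replicate could be left out, and spread and depth limit every difference to a description. No paired analysis was possible because each age has 1 deposited value. Counts within 1.5 times and medians within 0.1 on the log2 scale were taken as unmoved. Counts past the threshold moved as follows. At 1.2-fold there were 7 lower and 6 higher members, 2 higher other glutathione genes, 2 lower and 1 higher NRF2-regulated genes, 2 lower and 1 higher heme and iron genes, 2 higher retinoic acid genes, 5 lower oxidant-producing genes and 10 lower ER folding genes. At 2-fold there were 0 lower members, and 0 lower other glutathione, NRF2-regulated, oxidant-producing and ER folding genes, and 0 higher retinoic acid genes. With a minimum of 5 FPKM there was 1 lower member, since Gstm3 drops out, and 1 lower other glutathione gene. Giving both ages the same upper quartile, a factor of 1.03 for the 6 month values, left 0 lower other glutathione genes. It also made 2 higher retinoic acid genes. Of the 28 members followed by name, it turned Prdx1 alone, from -0.02 to 0.02. The lower and higher members were not recounted, and others near 0, such as Txn2 and Aldh2, turn as well. A pseudocount of 0.1 gave 2 lower ER folding genes and put Gstm3 at -1.03. With it the lower members went from 2 to 3, Aldh1b1 being added, and 2.17% of all genes were lower. With no filter, Sod3 enters and the median of the superoxide dismutases and catalase was -0.14.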

Other observations

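Krt4, a keratin of the upper layers of lingual epithelium, was listed at 7334 FPKM at 2 months and at 0 at 6 months, and Krt6a, a keratin of the same epithelium, at 0 and at 3391 FPKM. A listed 0 beside such a level can be a failed estimate, and whether this holds here was not tested. No member with a mean of at least 1 FPKM was listed at 0 at either age.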
